A study of Mus musculus with 161 samples.

Results

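Translation initiation and elongation factors were described here across 3 sorted mouse cell types of the monocyte lineage. The set was taken by gene symbol: every row of the deposited expression table that begins with Eif1 to Eif6 or with Eef1 or Eef2, without the eIF2 kinases (Eif2ak genes), pseudogene symbols and rows at 0 in every cell. It held 59 of the 43280 rows, and 24500 rows were not at 0 in every cell. Of the 59 rows, 57 exceeded 1 TPM in 10% or more of the cells of some type and were counted as measured, as were 14003 genes of the table in all. Eif5a2 and Eif2c5 were not measured by this filter. Eif2c is the former symbol of Argonaute genes, which share only the prefix with the factors. The row Eif2c5 itself is annotated as a noncoding RNA (lincRNA) and is no translation factor, but stays among the 59 rows. Eef1a2, the muscle and neuron form of elongation factor 1 alpha, was listed at 0 in every cell and left out.

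The study captured single cells of untreated C57BL/6 mice on the Fluidigm C1 system and copied their mRNA with oligo(dT) primers. It compared 66 common monocyte progenitors of the bone marrow (cMoP, sorted as Lin-CD117+CD115+CD135-Ly6C+), 57 bone marrow monocytes (marrow or BM monocytes, Lin-CD117-CD115+CD135-Ly6C+) and 38 blood monocytes (CD115+CD11b+Ly6Chi). Values are TPM, a measure of transcript abundance that is scaled for transcript length and to a fixed total per cell and keeps no read depth, so the depth of a cell is unknown. The labels name no animal, age or sex, so each cell type was 1 sample of cells, no test was run, and SDs and intervals below cover the spread or the counting of cells only.

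Translation begins when eIF2 brings the initiator tRNA to the small ribosomal subunit, where eIF1, eIF1A, eIF3 and eIF5 assemble. The cap-binding eIF4E, the scaffold eIF4G and the helicase eIF4A bring the mRNA, and eIF5B joins the large subunit. In elongation eEF1A delivers each aminoacyl-tRNA, the eEF1B complex reloads eEF1A with GTP, and eEF2 moves the ribosome by a codon. Many of these mRNAs, like those of ribosomal proteins, begin with a tract of pyrimidines at the cap (TOP mRNAs) through which the kinase mTOR controls their translation.

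A start-site search asked how many of the factors carry such letters at the RefSeq start on GRCm38.p6, where 45 of the 59 rows, and 44 without Eif2c5, had a promoter entry. A run of at least 5 bases that are all C or T, that begins with C and that starts at the annotated start base on the gene's strand was held by 2 of the 44 (4.55%), Eif3f and Eif2s3x, against 3.01% of 27025 genes. A run of at least 8 such bases anywhere within 15 bases on either side of the start was held by 9 of the 44 (20.5%), against 10.8% of all genes. Eif2c5 held both, which makes 3 and 10 of the 45 rows. Both shares describe letters only, and the longer run need not begin at the start base. The windows below show the letters around the start in the most abundant factor and in subunits of eIF3 that are compared later. They also show the X-linked and Y-linked genes for the gamma subunit of eIF2. Of these only Eif3f and Eif2s3x hold a run at the start base by the rule above. The Eef1a1 run begins at -5 from the annotated start base and spans it, but that base is a T, so the rule is not met. The Eif3l and Eif2s3y runs begin 4 bases and 1 base after the start base. These letters alone do not settle whether the mRNAs begin with a tract at the cap. Each holds 30 bases on the gene's strand, centred on the start, and capitals mark the longest run of C and T that begins with C.
Eef1a1, chr9:78481710-78481739, minus strand: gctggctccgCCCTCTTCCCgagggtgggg
Eif3f, chr7:108934400-108934429, plus strand: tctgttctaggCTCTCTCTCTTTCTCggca
Eif3l, chr15:79075208-79075237, plus strand: gcgcggagttcttcttccgCTCTCTCCCac
Eif2s3x, chrX:94212637-94212666, minus strand: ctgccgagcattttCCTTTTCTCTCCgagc
Eif2s3y, chrY:1010580-1010609, plus strand: gcggaggccacagccaCTTCCTTCTTTCgt

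Some libraries stand apart and bear on every comparison below. The median cell had 6661.5 genes above 1 TPM in cMoP, 4719 in marrow monocytes, and 4319.5 in blood monocytes. In 11 cMoP libraries mitochondrial rows held 16.6% to 47.7% of TPM, and 1 blood library had 0.37% of its TPM in ribosomal protein rows. The labels place 60 cMoP on 1 flow cell and lane and both monocyte groups on another, and 6 cMoP carry no flow cell, so cMoP against monocytes and that run cannot be told apart. Summed markers went with the sort labels. A set of 6 progenitor and granule genes summed to a median of 18658 TPM in cMoP and 0 in both monocyte groups, where Kit (BM) and Mpo and Elane (blood) were listed at 0. Other genes of this set were present in some monocytes, led by Elane in BM (mean 58.4 TPM) and Prtn3 in blood (mean 10.2 TPM). Its highest sums there were 2246 and 341 TPM. A set of 6 monocyte genes had medians of 7037, 60336 and 61376 TPM in cMoP, BM and blood. Of the markers of other cell types, Cd79a, Pax5, Cd3e, Cd3g, Trac and Ncr1 were listed at 0 in every cell, but other genes of the same lists were present. The B cell list summed to 0 to 941 TPM in cMoP, 0 to 328 in marrow monocytes and 0 to 1050.3 in blood monocytes, led by Cd79b in each type. The T and NK cell list summed to 0 to 2803 TPM (median 109) in cMoP, led by Nkg7 with a mean of 301 TPM, and to at most 6.38 and 31.85 TPM in BM and blood, where Nkg7 was listed at 0. The erythroid list reached 196, 199.8 and 13.8 TPM in single cells. The neutrophil list had medians of 9.68, 23.6 and 15.3 TPM and highest sums of 738, 1912 and 1734 TPM, with Mmp8 at means of 151 TPM in BM and 109.7 TPM in blood, and Ltf, Ngp and Camp listed at 0 in both. The dendritic cell list had medians of 17.96, 6.31 and 6.46 TPM and highest sums of 342, 1563 and 1127 TPM, with Cd209a at a mean of 83.7 TPM in BM. The part of such cells or transcripts in the factors' differences was not tested.

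The median progenitor held more of the set than the median monocyte, with a wide range over cells. The median cMoP held 49 of the 59 rows above 1 TPM, with a range of 24 to 58 over cells. The median marrow monocyte held 33 (23 to 46), and the median blood monocyte 29 (20 to 38). The factors' summed share of a cell's TPM had medians of 2.23%, 1.51% and 1.34% in the same order. Eef1a1 alone made 0.95%, 0.68% and 0.53%, and all other factors together 1.27%, 0.83% and 0.76%. The 11 cMoP with a high mitochondrial share held a median of 32 factors and 0.89% of TPM, close to the monocytes, against 50 factors and 2.28% in the other 55 cMoP. The blood library with a low ribosomal protein share held 20 factors and 0.06% of its TPM.

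**Figure D1:**
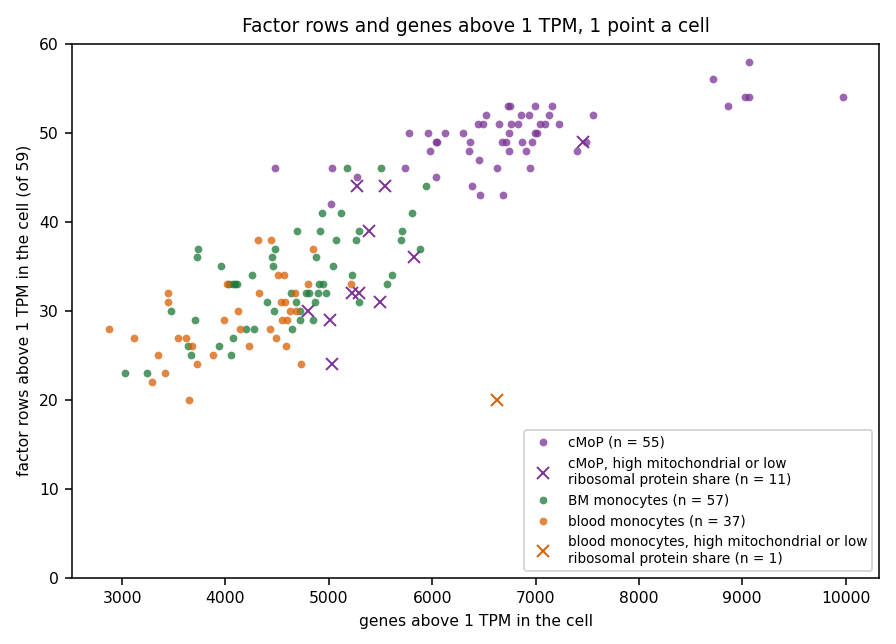
Factor rows above 1 TPM (y axis, of 59) against all genes above 1 TPM (x axis) in each of the 161 cells, coloured by cell type, with crosses for the 11 cMoP of high mitochondrial share and the 1 blood library of low ribosomal protein share. The cMoP lie highest on both axes (medians 49 factors and 6661.5 genes), and the crossed blood library (20 factors, 6630 genes) lies lowest for its number of genes.

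The level of the factors went with the number of genes in the cell. The mean log2(TPM + 1) over the factors and the number of genes above 1 TPM had r = 0.61 (rho 0.63) over 66 cMoP, 0.60 (rho 0.58) over 57 marrow monocytes and 0.03 (rho 0.36) over 38 blood monocytes, or 0.43 in blood without the 2 cells farthest in gene number. The points of a group share a sort, and both measures rest on the same library. Among cells with 4500 to 6000 genes and without the libraries that stand apart, the 7 cMoP held 42 to 50 factors (median 46), the 33 marrow monocytes 28 to 46 (median 34) and the 14 blood monocytes 24 to 37 (median 31). The cMoP and blood ranges did not overlap here, while the BM range touched both. Gene number still differed inside this window, with 5022 to 5975 genes (median 5736) in those cMoP, 4630 to 5938 (median 4970) in BM and 4506 to 5212 (median 4607.5) in blood, so it was not matched.

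Each cell type was summarised by averaging log2(TPM + 1) over its cells, the earlier type was subtracted from the later, and a size of at least 1 was counted as called. From cMoP to marrow monocytes 41 of the 57 measured factors (71.9%) were lower by that rule, against 30.8% of all measured genes. None was higher (0 of 57, against 3.94% of all genes). The median difference was -1.84 over the factors and -0.45 over all genes. Among the 6339 genes that exceeded 1 TPM in 50% or more of the cells of some type, 39 of 53 factors (73.6%) were lower against 53.9% of these genes, and 0 higher against 7.19%.

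From BM to blood monocytes 14 of 57 factors (24.6%) were lower by at least 1, against 9.66% of all measured genes. None was higher (0 of 57, against 1.96% of all genes), and the median difference was -0.54 against -0.10. Among the more widely held genes 14 of 53 factors (26.4%) were lower against 19.7%, and 0 higher against 3.25%. These comparisons share the marrow monocytes. Counts of classes and lists below are to be read beside the shares of all measured genes. Those were 30.8% lower and 3.94% higher at the former step, and 9.66% and 1.96% at the latter. By mean log2 value cMoP was highest for 55 of the 57 factors, and 46 had a lower mean at each step. Only Eif1 and Eif4e1b had their highest mean log2 value in blood. Most of the table ran the same way. Of all 14003 measured genes, 10297 had a lower mean in BM than in cMoP, and 8373 in blood than in BM.

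**Figure D2:**
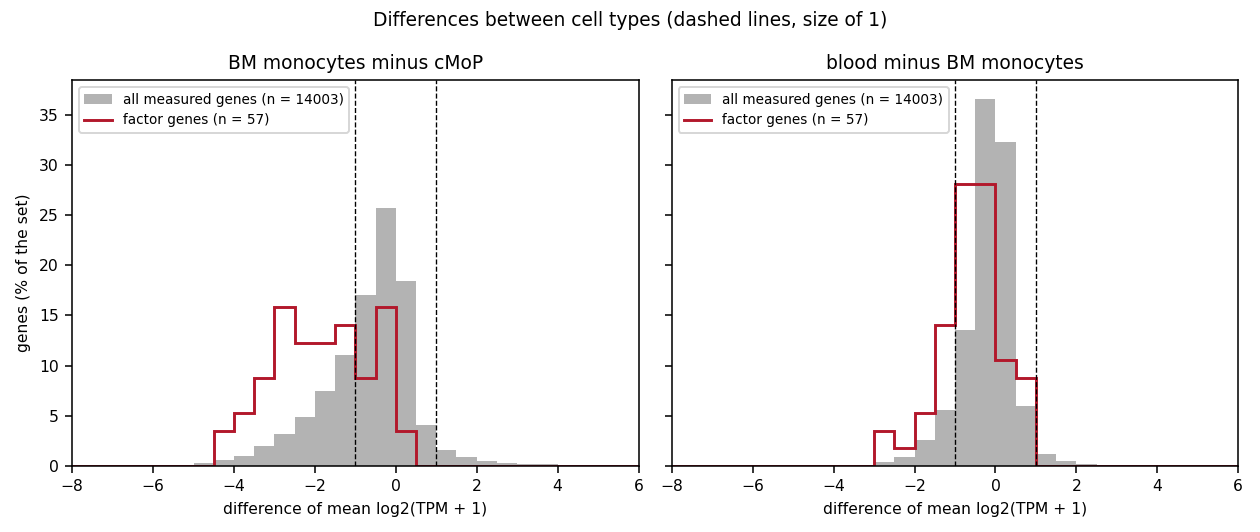
Distribution of differences in mean log2(TPM + 1) for the 57 factor genes (red line) and for all 14003 measured genes (grey), as percent of each set, with dashed lines at a size of 1. The factors centre on -1.84 against -0.45 for all genes on the left, and on -0.54 against -0.10 on the right.

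The cell types differed in how many cells held a transcript. The median factor was above 1 TPM in 90.9% of cMoP, 54.4% of marrow monocytes and 47.4% of blood monocytes, where all measured genes had medians of 40.9%, 22.8% and 21.1%. The share of cells was lower in marrow monocytes than in cMoP for 51 of 57 factors, and lower in blood than in BM for 44. Such counts over all measured genes are not given here. In the cells that held the transcript the level was less uniform. Of 54 factors with at least 10 such cells in both types, 38 had a lower median TPM in positive marrow monocytes than in positive cMoP and 16 a higher one.

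A mean over TPM, which weights the cells with the most transcript, gave a different picture. As log2 ratios of mean TPM, 17 of the 57 factors (29.8%) were lower by at least 1 in marrow monocytes than in cMoP, near the 23.9% of all genes, and 1 was higher, against 15.6%. Between BM and blood 13 (22.8%) were lower, against 23.5% of all genes, and 3 were higher, against 16%. By mean TPM cMoP was highest for 34 factors, marrow monocytes for 13 and blood monocytes for 10, a split that is not given here for all genes. Means in blood could rest on 1 cell: in 13 factors a single blood cell held over 50% of the group's summed TPM, against 3 factors in marrow monocytes, and 0 in cMoP. Among them, Eif2b2 had a blood mean of 59.03 TPM and of 10.8 TPM without its highest cell, and Eif3l means of 114 and 31.02 TPM.

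**Figure D3:**
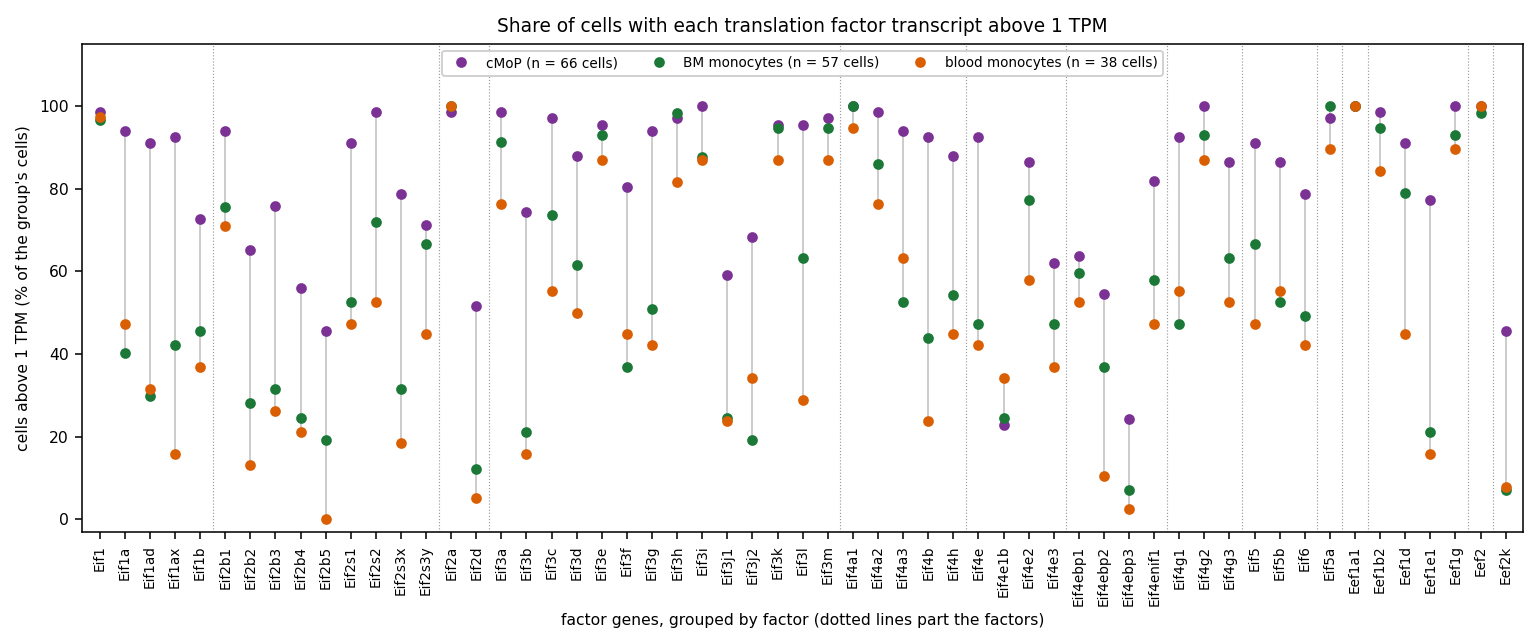
Percent of cells above 1 TPM (y axis) for each of the 57 measured factor genes (x axis, grouped by factor) in cMoP, marrow monocytes and blood monocytes. The cMoP points lie highest for 50 of the 57 genes, while Eef1a1 is at 100% in all 3 types.

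The most abundant factor on the TPM scale was Eef1a1, the form of elongation factor 1 alpha used in most tissues. Its values ran from 230.1 to 14306 TPM (median 9518) in cMoP, 964 to 12764 TPM (median 6826) in marrow monocytes, and 21.2 to 12265 TPM (median 5312) in blood monocytes. No cell lacked it, and the 3 ranges overlapped over most of their length. The mean log2 values were 12.81 ± 1.13 (SD, n = 66), 12.62 ± 0.61 (n = 57) and 12.05 ± 1.45 (n = 38). The differences were -0.2 and -0.57, and with median-ratio scaling in place of TPM the former became 0.28.

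Elongation factor 1B, the exchange complex of eEF1A, was far less even. Its gamma subunit Eef1g ran from 7.64 to 1924 TPM (median 903) in cMoP, 0 to 1199 TPM (median 95.96) in marrow monocytes, and 0 to 1203 TPM (median 59.05) in blood monocytes. Every cMoP held it, and the mean log2 value was 9.49 ± 1.4 (SD) against 5.91 ± 3.21 in marrow monocytes, a difference of -3.57 that stayed at -3.12 with median-ratio scaling. The step to blood was -0.73. The delta subunit Eef1d was held by most marrow monocytes and by fewer of the blood monocytes. It ran from 0 to 1100.2 TPM (median 324) in cMoP, 0 to 1678 TPM (median 80.2) in marrow monocytes, and 0 to 691 TPM (median 0) in blood monocytes. It was above 1 TPM in 90.9%, 78.9% and 44.7% of the cells (95% exact interval in blood 28.6% to 61.7%), and its difference of -2.85 from BM to blood was the most negative of all factors. The alpha-type exchange subunit Eef1b2 had medians of 1077, 308 and 278 TPM and differences of -1.97 and -0.99. Eef1e1, which belongs to the multi-tRNA synthetase complex and not to the exchange factor proper, was above 1 TPM in 51 of 66 cMoP, 12 of 57 marrow monocytes and 6 of 38 blood monocytes, with differences of -3.64 and 0.06. All 4 genes of the group were lower by at least 1 in marrow monocytes than in cMoP, and 1 of 4 from BM to blood, against 30.8% and 9.66% of all measured genes.

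Eef2, the translocase, kept its level in the bone marrow and was lower in blood. Its values ran from 2.41 to 1614 TPM (median 475) in cMoP, 0 to 2033 TPM (median 414) in marrow monocytes, and 1.64 to 2364 TPM (median 96.1) in blood monocytes. All but 1 of the 161 cells were above 1 TPM, so its differences were of level. The difference was -0.47 from cMoP to BM, which was 0.01 with median-ratio scaling, and -1.28 from BM to blood, where the ranges still overlapped. Eef2k, the kinase that inhibits eEF2, was above 1 TPM in 30 of 66 cMoP but only 4 of 57 BM and 3 of 38 blood monocytes, with highest values of 114, 3.43 and 2.12 TPM. Its differences were -1.49 and -0.07.

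Eif5a, the hypusine-bearing factor that helps ribosomes over stalling sequences, was the most abundant factor after Eef1a1. Its values ran from 0 to 3517 TPM (median 1736) in cMoP, 1.08 to 2753 TPM (median 750.4) in marrow monocytes, and 0 to 2139.7 TPM (median 259) in blood monocytes. The median was lower at each step, but single blood cells reached the level of the middle of the cMoP. The mean log2 values were 10.04 ± 2.32 (SD), 8.75 ± 2.27 and 6.75 ± 3.68, giving differences of -1.28 and -2.0, or -0.79 and -1.91 with median-ratio scaling. The paralogue Eif5a2 was above 1 TPM in 5, 3 and 1 cells of the 3 types. The 8 enzymes that make the hypusine of eIF5A and the diphthamide of eEF2 had a median difference of -1.38 from cMoP to BM, with 7 of 8 lower by at least 1, and of -0.13 from BM to blood, with 0 of 8.

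**Figure D4:**
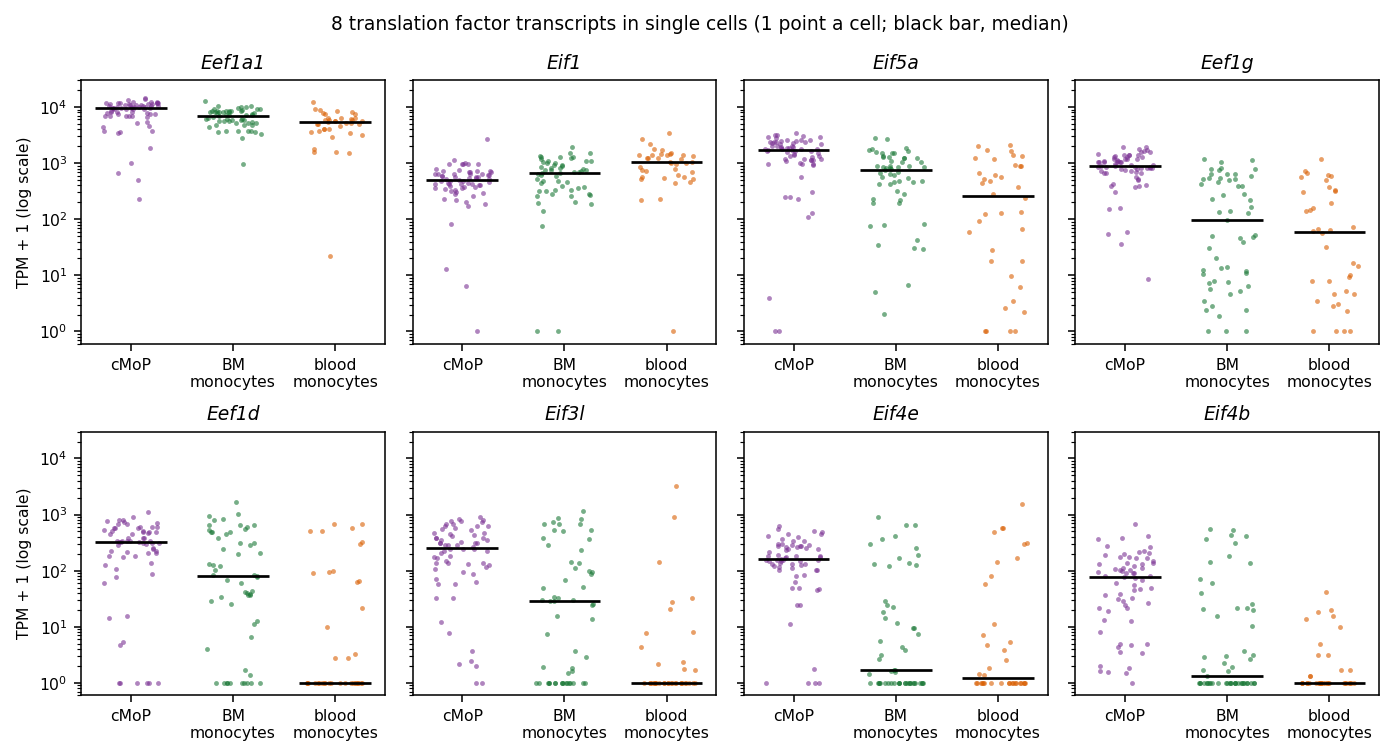
TPM + 1 on a log axis for 8 factor genes in every cell of the 3 types (1 point a cell, black bar at the median; a value of 1 is a gene listed at 0). Eef1a1 is present in all cells, Eif1 has its highest median in blood, and Eef1d, Eif3l and Eif4b have a blood median of 0 TPM.

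Eif1, which guards the choice of start codon, was the abundant factor whose median was highest in blood. Its values ran from 0 to 2658 TPM (median 492) in cMoP, 0 to 1936 TPM (median 668) in marrow monocytes, and 0 to 3466 TPM (median 1031) in blood monocytes. The median was higher at each step, while the ranges overlapped widely and 4 cells in all listed it at 0. The mean log2 values were 8.64 ± 1.65 (SD), 8.88 ± 1.96 and 9.64 ± 1.82, so the differences of 0.24 and 0.76 were under a size of 1 and under the SD over cells. Without the libraries that stand apart they were -0.08 and 1.02. Its paralogue Eif1b was above 1 TPM in 72.7%, 45.6% and 36.8% of cells, and made 9.61%, 5.33% and 5.20% of the mean TPM of the pair.

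The eIF1A genes behaved otherwise. Eif1a and the X-linked Eif1ax, which stabilise the scanning complex, were each held by over 90% of cMoP. Eif1a ran from 0 to 1044 TPM (median 137) in cMoP, 0 to 1339.8 TPM (median 0) in marrow monocytes, and 0 to 3309 TPM (median 0.94) in blood monocytes. Eif1ax ran from 0 to 510.1 TPM (median 57.4) in cMoP, 0 to 251 TPM (median 0) in marrow monocytes, and 0 to 166 TPM (median 0) in blood monocytes. Both genes were above 1 TPM together in 57 of 66 cMoP, 10 of 57 marrow monocytes and 3 of 38 blood monocytes, and 20 BM and 17 blood monocytes had neither. From cMoP to BM the differences were -3.42 for Eif1a and -3.29 for Eif1ax. At the step to blood Eif1ax had a difference of -1.57 against -0.03 for Eif1a. Eif1ad, an eIF1A-domain protein, had differences of -3.35 and 0.09.

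eIF2, which carries the initiator tRNA, was lower in all 3 of its subunits in marrow monocytes than in cMoP, apart from the Y-linked form of the gamma subunit. The alpha subunit Eif2s1, the one phosphorylated under stress, ran from 0 to 479 TPM (median 152) in cMoP, 0 to 464 TPM (median 1.59) in marrow monocytes, and 0 to 684 TPM (median 0.88) in blood monocytes. It was above 1 TPM in 90.9%, 52.6% and 47.4% of cells, with differences of -3.8 and -0.08. The beta subunit Eif2s2 ran from 0.69 to 369 TPM (median 77.5) in cMoP, 0 to 173 TPM (median 11.2) in marrow monocytes, and 0 to 237 TPM (median 1.88) in blood monocytes. It was lower at both steps, with differences of -2.4 and -1.48, and no cMoP lacked it.

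The gamma subunit is made from an X-linked gene, Eif2s3x, or from its Y-linked counterpart Eif2s3y, whose start windows are shown above. Their transcripts share 0 stretches of 50 bases in the GENCODE annotation, so long reads can be assigned to either. Eif2s3x ran from 0 to 592 TPM (median 25.9) in cMoP, 0 to 927 TPM (median 0) in marrow monocytes, and 0 to 17.1 TPM (median 0) in blood monocytes. Eif2s3y ran from 0 to 1195 TPM (median 29.9) in cMoP, 0 to 1021 TPM (median 7.95) in marrow monocytes, and 0 to 1138 TPM (median 0.32) in blood monocytes. Thus no blood cell exceeded 17.1 TPM of the X-linked transcript, while the highest cell of the Y-linked one was at a like level in all 3 types. The differences were -2.82 and -1.0 for Eif2s3x and -0.2 and -0.99 for Eif2s3y, which was 0.14 at the step from cMoP to BM with median-ratio scaling.

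Counted by cell, the balance of the pair differed between the types. Both transcripts were above 1 TPM in 36 of 66 cMoP, only Eif2s3x in 16, only Eif2s3y in 11 and neither in 3. The same counts were 12, 6, 26 and 13 of 57 marrow monocytes and 4, 3, 13 and 18 of 38 blood monocytes. The Y-linked gene made 50.5%, 73.7% and 98.9% of the mean TPM of the pair. The labels give no sex. A Y-linked gene was above 1 TPM in 64 of 66 cMoP, 55 of 57 marrow monocytes and 37 of 38 blood monocytes, and Xist, the transcript of the inactive X, in 8, 1 and 1 cells. Nearly every cell of each group thus held a Y-linked transcript above 1 TPM, with Eif2s3y itself among the genes counted. Above 10 TPM the counts were 59 of 66 cMoP, 40 of 57 marrow monocytes and 29 of 38 blood monocytes.

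**Figure D5:**
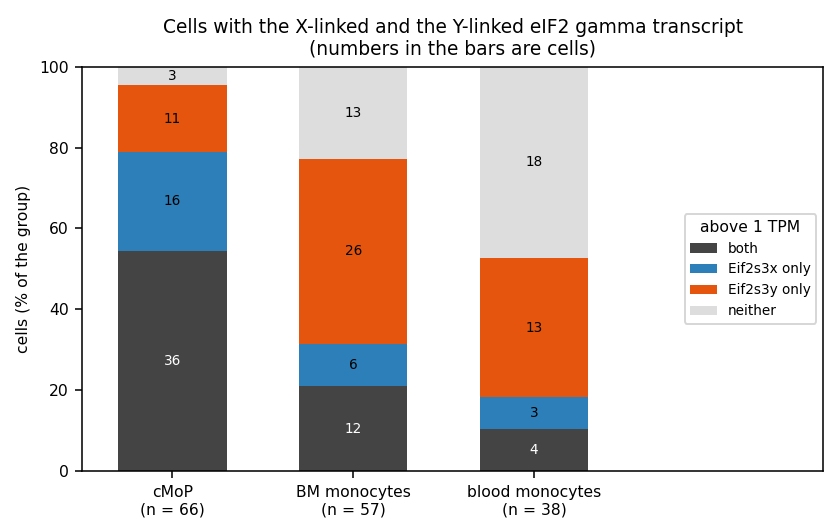
Percent of cells (y axis; numbers in the bars are cells) with Eif2s3x and Eif2s3y above 1 TPM together, Eif2s3x only, Eif2s3y only or neither, in cMoP, marrow monocytes and blood monocytes. Cells with both are 36 of 66 in cMoP and 4 of 38 in blood.

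The 5 subunits of eIF2B, the exchange factor that recharges eIF2, were low on the TPM scale, with means over the 3 types of 10.1 to 58.5 TPM. Its catalytic subunit Eif2b5 was above 1 TPM in 30 of 66 cMoP (45.5%), 11 of 57 marrow monocytes (19.3%) and none of 38 blood monocytes (0), a count that leaves room for a share of 7.89%. The highest values were 239, 184 and 0.48 TPM. Over eIF2 and eIF2B together 8 of 9 genes were lower by at least 1 in marrow monocytes than in cMoP (median difference -1.84) and 2 of 9 in blood than in BM (median -0.76). The shares of all measured genes were 30.8% and 9.66%. The factors eIF2A and eIF2D deliver initiator tRNA in other ways. Eif2a ran from 0.68 to 521 TPM (median 56.8) in cMoP, 4.62 to 1239.8 TPM (median 22.6) in marrow monocytes, and 10.3 to 1179 TPM (median 22.05) in blood monocytes, and in blood it lay above 10 TPM in all 38 cells. That even presence was unlike Eif2d, which was above 1 TPM in 34 of 66, 7 of 57 and 2 of 38 cells.

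eIF3 is the largest initiation factor, a complex of many subunits that bridges the small ribosomal subunit and the mRNA. Of its 14 measured genes the median cMoP held 13 above 1 TPM, the median marrow monocyte 9 and the median blood monocyte 8. From cMoP to BM 10 of 14 were lower by at least 1 (median difference -2.32), and from BM to blood 2 of 14 (median -0.75). The shares of all measured genes were 30.8% and 9.66%. The size rests on the scale: as log2 ratios of mean TPM the medians of the 14 were -0.36 and -0.13. The subunits did not move alike. Eif3k, a peripheral subunit, had medians of 469, 461 and 139 TPM, with differences of -0.32 and -1.03. Eif3h, a subunit with a TOP mRNA, ran from 0 to 1437 TPM (median 288) in cMoP, 0 to 2129 TPM (median 335) in marrow monocytes, and 0 to 1937 TPM (median 258) in blood monocytes. The differences of Eif3h were -0.29 and -0.91, and with median-ratio scaling those from cMoP to BM were 0.18 for Eif3h and 0.16 for Eif3k.

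Eif3l and Eif3g lay at the other end of the complex. Eif3l, the partner of Eif3k at the edge of the complex, ran from 0 to 920.4 TPM (median 254) in cMoP, 0 to 1133 TPM (median 27.6) in marrow monocytes, and 0 to 3189.9 TPM (median 0) in blood monocytes. It was above 1 TPM in 95.5%, 63.2% and 28.9% of cells (95% exact interval in blood 15.4% to 45.9%), with differences of -2.98 and -2.8. In blood Eif3l was thus held by 11 cells where Eif3k was held by 33 of 38. Eif3g, an RNA-binding subunit, ran from 0 to 558 TPM (median 149) in cMoP, 0 to 674 TPM (median 1.59) in marrow monocytes, and 0 to 1849.7 TPM (median 0) in blood monocytes, and its difference of -3.32 from cMoP to BM was the most negative of the complex. Eif3i, a core subunit, had medians of 358, 46.2 and 116 TPM and was lower in marrow monocytes (-2.6) but not in blood against BM (0.72). Eif3f, whose start window holds the longest pyrimidine run among those shown, was above 1 TPM in 53 of 66, 21 of 57 and 17 of 38 cells, with differences of -2.08 and 0.38. Eif3j1 and its near copy Eif3j2 share 2115 stretches of 50 bases, 90.8% of those of Eif3j2, so the split of reads between them is uncertain.

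The cap-binding step held the most negative difference of the whole set from cMoP to BM. Eif4e, which binds the mRNA cap, ran from 0 to 627 TPM (median 159) in cMoP, 0 to 902 TPM (median 0.67) in marrow monocytes, and 0 to 1519 TPM (median 0.2) in blood monocytes. It was above 1 TPM in 61 of 66 cMoP, 27 of 57 marrow monocytes and 16 of 38 blood monocytes, and the median of the positive cells was 177, 27.7 and 111 TPM. The mean log2 values were 6.82 ± 2.22 (SD), 2.68 ± 3.3 and 2.56 ± 3.55, and the differences were -4.14 and -0.12. As a log2 ratio of mean TPM the former was -1.27. The highest monocyte cells were above the highest cMoP, so the groups overlapped fully at the top.

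The other cap-binding genes were less different between progenitor and monocyte. Eif4e2, a cap-binding protein tied to repression of translation, ran from 0 to 549.9 TPM (median 95.9) in cMoP, 0 to 1532 TPM (median 27.8) in marrow monocytes, and 0 to 866 TPM (median 2.8) in blood monocytes, with differences of -0.84 and -1.06. Eif4e3 had differences of -0.27 and -1.11, and as a log2 ratio of mean TPM its difference from cMoP to BM was 1.47, the 1 factor counted as higher on that scale, while median-ratio scaling of the log values gave 0.03. Eif4e was the higher of Eif4e and Eif4e2 in 44 of 66 cMoP, and Eif4e2 in 20. In marrow monocytes Eif4e was higher in 16 cells and Eif4e2 in 34, and in blood monocytes in 12 and 21. Eif4e1b, an oocyte form, had a median of 0 TPM in every type. Of the 4 cap-binding genes 1 was lower by at least 1 in marrow monocytes than in cMoP (median difference -0.55), but the median was 0.57 on the scale of mean TPM and 0.06 in cells with 4500 to 6000 genes.

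The proteins that hold eIF4E back were present in all types at low levels. Eif4ebp1, which releases eIF4E when mTOR phosphorylates it, ran from 0 to 502 TPM (median 10.97) in cMoP, 0 to 679 TPM (median 3.47) in marrow monocytes, and 0 to 833 TPM (median 1.43) in blood monocytes. Its differences of -0.29 and -0.4 were well under the SD over cells, and the former was 0.06 with median-ratio scaling. Eif4ebp1 was higher than Eif4e in 9 of 66 cMoP, 28 of 57 marrow monocytes and 15 of 38 blood monocytes, and lower in 53, 19 and 16. Eif4ebp2 ran from 0 to 309.8 TPM (median 1.97) in cMoP, 0 to 584 TPM (median 0) in marrow monocytes, and 0 to 2.27 TPM (median 0) in blood monocytes, so no blood cell exceeded 2.27 TPM, and its difference from BM to blood was -1.65. Eif4enif1, the shuttle that carries eIF4E into the nucleus, had a difference of -2.27 from cMoP to BM. Eif4ebp3 was above 1 TPM in 16, 4 and 1 cells. Over the 4 genes the median difference from cMoP to BM was -0.58, and 0.32 as a log2 ratio of mean TPM.

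The helicase eIF4A and its cofactors were lower in marrow monocytes than in cMoP in 5 of 5 genes (median difference -2.0). Eif4a1, the main helicase of scanning, ran from 1.18 to 876 TPM (median 269) in cMoP, 4.57 to 546 TPM (median 100.5) in marrow monocytes, and 0 to 840.4 TPM (median 124) in blood monocytes. It was the most evenly held of them, above 1 TPM in every bone marrow cell, with differences of -1.43 and -0.12. Eif4a2 had medians of 298, 59.1 and 53.1 TPM and a difference of -1.84 from cMoP to BM, but its means of 384 and 385 TPM hardly differed. Eif4a3, a part of the exon junction complex, ran from 0 to 922 TPM (median 271) in cMoP, 0 to 1241 TPM (median 1.84) in marrow monocytes, and 0 to 786 TPM (median 8.78) in blood monocytes, with differences of -4.09 and 0.64. Eif4b, the RNA-binding partner of eIF4A with a TOP mRNA, was lower at both steps. It ran from 0 to 670.0 TPM (median 77.1) in cMoP, 0 to 544 TPM (median 0.34) in marrow monocytes, and 0 to 39.97 TPM (median 0) in blood monocytes, so the highest of the 38 blood cells lay below the median cMoP, and its differences were -3.15 and -1.47.

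The scaffolds of the cap complex differed from each other. Eif4g1, the canonical scaffold, had medians of 28.2, 0.53 and 7.42 TPM, with differences of -2.01 and 0.54. Eif4g2, which lacks the eIF4E site and serves translation without the cap complex, was the most abundant of them. It ran from 4.94 to 1423 TPM (median 375) in cMoP, 0 to 2324 TPM (median 200.4) in marrow monocytes, and 0 to 2462 TPM (median 49.5) in blood monocytes, with differences of -1.1 and -1.54. It made 87.6%, 87.7% and 82.0% of the mean TPM of the pair Eif4g1 and Eif4g2. Counted by cell, Eif4g2 was the higher of the pair in 59 of 66 cMoP, 47 of 57 marrow monocytes and 25 of 38 blood monocytes, and Eif4g1 in 7, 8 and 12. Eif4g3 had differences of -0.86 and 0.01. The direction of this group rests on the scale: as log2 ratios of mean TPM the differences from cMoP to BM were 0.06 for Eif4g1, 0.07 for Eif4g2 and 0.51 for Eif4g3.

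Eif5, Eif5b and Eif6, which bear on subunit joining in different ways, were lower in marrow monocytes than in cMoP in 3 of 3 genes. Eif5, the GTPase activator of eIF2, ran from 0 to 490.3 TPM (median 59.1) in cMoP, 0 to 1286 TPM (median 28.4) in marrow monocytes, and 0 to 851 TPM (median 0.64) in blood monocytes. Its differences were -1.29 and -1.33, and the log2 ratio of mean TPM from cMoP to BM was 0.31. Eif5b, the GTPase that joins the subunits, had medians of 18.7, 1.5 and 1.22 TPM and differences of -1.99 and -0.32. Eif6, which keeps free large subunits apart from small ones and serves in their making, had medians of 88.6, 0.71 and 0 TPM and differences of -2.78 and -0.67.

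The 9 factors of a list of known TOP mRNAs (Eef1a1, Eef1b2, Eef1d, Eef1g, Eef2, Eif3e, Eif3f, Eif3h and Eif4b) had counts near those of the other factors from cMoP to BM. Of the 9, 6 were lower by at least 1 (median difference -1.70), and of the 48 others 35 (median -1.91). From BM to blood 3 of 9 (median -0.99) and 11 of 48 (median -0.46) were lower. Ribosomal protein genes, the largest class of TOP mRNAs, had medians of -0.61 and -0.49, with 15 and 14 of 84 lower by at least 1. All measured genes had 30.8% and 9.66% lower by that size at these steps. The order of these groups rests on the scale. As log2 ratios of mean TPM the medians from cMoP to BM were -0.64 for ribosomal protein genes, -0.34 for the 9 and -0.56 for the 48 others. From BM to blood they were -0.15, -0.36 and -0.13. The ribosomal protein genes were above 1 TPM in nearly all cells of every type, with a median share of 97.4% or more, which the factors were not. The start-site search covered 5 members of the TOP list. A run at the start base was held by 1 of the 5, against 1 of 39 other factors (2.56%) and 3.01% of all genes. A run of at least 8 bases within the window was held by 2 of the 5, against 7 of 39 (17.9%) and 10.8%.

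Genes that work with the factors gave a mixed picture over 6 lists of 42 measured genes. From cMoP to BM 25 were lower by at least 1 and 1 was higher, with a median difference of -1.38. Between BM and blood 6 were lower and 2 higher, with a median of -0.25. Of all measured genes 30.8% were lower and 3.94% higher at the former step, and 9.66% and 1.96% at the latter. The median of the eIF2 kinase and stress list was -0.28 (0 of 8 lower by at least 1) and 0.12, the former 0.02 with median-ratio scaling and 0.65 as a log2 ratio of mean TPM. Its named genes were Ppp1r15b, which recruits the eIF2 phosphatase, at -0.92 and 0.66, Eif2ak4, the amino acid sensor, at -0.83 and 0.22, and Atf4, the factor translated under stress, at -0.35 and -1.28. Eif2ak1, the haem-regulated kinase, was at -0.41 and -1.15.

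The list of mTOR, MNK and eIF4A regulators held the 1 gene that was higher. Mknk1, the kinase that phosphorylates eIF4E, ran from 0 to 229.8 TPM (median 0) in cMoP, 0 to 1431 TPM (median 18.4) in marrow monocytes, and 0 to 839 TPM (median 0.62) in blood monocytes. It was above 1 TPM in 42.4%, 66.7% and 39.5% of cells, with differences of 1.55 and -1.33, and the groups overlapped. Its median was highest in marrow monocytes, where its substrate Eif4e was held by 27 of 57 cells. Mknk2 had differences of -0.26 and -1.12, Larp1, the TOP mRNA binding repressor, -2.57 and -0.13, and Rps6kb1, an mTOR target kinase, -2.54 and -0.76. Of the 9 genes 4 were lower by at least 1 from cMoP to BM and 2 from BM to blood.

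Of the poly(A) binding list 4 of 5 genes were lower by at least 1 from cMoP to BM (median -1.87, or 0.21 as a log2 ratio of mean TPM). Pabpc1, the main poly(A) binding protein and eIF4G partner, ran from 36.7 to 4123 TPM (median 1488) in cMoP, 2.95 to 2938 TPM (median 633) in marrow monocytes, and 0.72 to 2104 TPM (median 142) in blood monocytes, with differences of -2.02 and -1.61. Paip2, which withholds the poly(A) binding protein from the cap complex, had medians of 108, 5.03 and 61.8 TPM and differences of -1.87 and 1.05. From BM to blood these antagonists therefore differed in opposite directions. Pabpc4 was at -2.05 and -0.14.

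Termination and recycling had 5 of 6 genes lower by at least 1 from cMoP to BM (median -2.71) and 0 of 6 from BM to blood, where 1 was higher. That gene was Etf1, the release factor that reads stop codons, with medians of 36.4, 0.38 and 3.31 TPM and differences of -2.78 and 1.4. Abce1, which splits the ribosome, was at -3.14 and -0.49, and Denr, a recycling factor, at -3.13 and 0.26. In the hypusine and diphthamide list Dph5 was at -2.21 and 0.04, Dph6 at -1.97 and 0.07, Dph3 at -1.6 and -0.58, and Dhps, the deoxyhypusine synthase, at -0.67 and -0.31. The mitochondrial translation factors had 5 of 6 lower at the former step (median -2.04) and 1 of 6 at the latter (median -0.71). Tufm, the mitochondrial counterpart of eEF1A, was above 1 TPM in 51 of 66 cMoP, 16 of 57 marrow monocytes and 1 of 38 blood monocytes, with differences of -3.51 and -1.71. Tsfm, its exchange factor, was at -2.51 and -0.75, and Gfm1 at -1.99 and -0.83.

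Growth and cycling genes differed in the same direction as the factors. From cMoP to BM, 14 of 15 ribosome biogenesis genes (median -3.05), 20 of 20 aminoacyl-tRNA synthetases (median -2.44), 12 of 12 S phase genes (median -4.82) and 12 of 12 genes of G2 and M phase (median -2.14) were lower by at least 1. At the step to blood the counts were 1 of 15, 3 of 20, 8 of 12 and 10 of 12. The shares of all measured genes were 30.8% at the former step and 9.66% at the latter. Over the 66 cMoP the factors' mean log2 value and that of the S phase genes had r = 0.75 (rho 0.51), and that of the ribosome biogenesis genes r = 0.79 (rho 0.67). With the genes of G2 and M phase r was 0.23 (rho 0.28). The share of mitochondrial TPM had r = -0.90 (rho -0.43) with the factors' mean in the same cells. Over 57 marrow monocytes r was 0.50 (rho 0.40) with the S phase genes, and 0.34 without the 2 cells farthest in them. Over 38 blood monocytes it was -0.22 (rho -0.08). With the G2 and M phase genes r was 0.34 (rho 0.48) in marrow monocytes. In blood monocytes it was -0.34 (rho -0.11), or -0.09 without the 2 cells farthest in them. With the ribosome biogenesis genes r was 0.43 (rho 0.41) in marrow and 0.11 (rho 0.09) in blood monocytes. These are descriptions over cells, and both measures of a cell rest on the same library, whose depth is unknown. The part of cycling or of library quality in the factors' differences was not tested.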

How the data were processed

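TPM values of 161 single cells were taken as deposited by the authors, who made them with RSEM 1.2.19 on GRCm38, per the submitters' processing notes. The aligner is not given in the sources used here, nor is the annotation. Columns summed to 997939 to 999955 TPM, 0 columns lacked a matching sample and 0 columns were identical. TPM keeps no depth, so precision is limited by the number of cells, and a value of 0 can be a failed estimate. Groups came from the cell type label. Differences are means over cells of log2(TPM + 1), later minus earlier, with no test, since each cell type is 1 sample. A size of 1 on the log2 scale (2-fold) was called. Shares carry 95% exact Clopper-Pearson intervals, and a count of 0 cells is given with the limit of 3 cells, both for the counting of cells only. Class, TOP, pathway, ribosomal protein, ribosome biogenesis, aminoacyl-tRNA synthetase, cycle and marker lists were written by hand, and the factors and lists were chosen with earlier results of these data known.

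Genes named with values were the 5 most abundant factors, the 10 and 5 largest differences of the former and latter step (above 1 TPM in at least 50% of the higher group), paralogue sets, the extremes of each factor class and 2 genes of each pathway list and step. Others were named after their values were seen. Mitochondrial rows above 15% or ribosomal protein rows below 2% of TPM set libraries apart. Start sites came from RefSeq (GRCm38.p6), and shared words of 50 bases from GENCODE transcripts. The difference code was tested on simulated data. Alternatives were pseudocounts of 0.1 and 10, mean or median summaries, median-ratio scaling, filters and left-out libraries. Python 3.11.15, numpy 2.4.6, pandas 2.3.3, scipy 1.17.1 and matplotlib 3.10.9 were used.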

Additional observations from a re-analysis of the deposited data

How the results depend on the processing

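The counts and medians of the factors kept their direction under every alternative run, but their size depended on how cells were averaged. As log2 ratios of mean TPM, 17 factors were lower in BM monocytes than in cMoP and 1 higher, with a median of -0.51, and 3 were higher in blood than in BM. On that scale 32 of 46 named factors kept their sign from cMoP to BM. Of those that changed sign, 4 had a difference of at least 1 in size before: Eif4g2 (0.069), Eif4a2 (0.0059), Eif4g1 (0.056) and Eif5 (0.31). A pseudocount of 0.1 gave 23 factors lower and 1 higher in blood, and a pseudocount of 10 gave 5 lower. Medians of log2 values gave 3 factors higher in blood. Without the libraries of high mitochondrial or low ribosomal protein share 1 was higher in blood. Cells with 4500 to 6000 genes (7 cMoP) gave 2 higher in BM and 1 higher in blood, beside 39 and 16 lower. The cause was not tested. Median-ratio scaling moved the median of all genes from cMoP to BM from -0.45 to -0.31, with 35 factors lower and a median of -1.5. It changed the sign of 8 of 46 named factors, each of them under a size of 1 before and after. Leaving out the 6 cMoP without a flow cell left 41 factors lower. No paired analysis was possible because the labels give the cells no shared replicate numbers and no result comes from a test. No cell type could be left out in turn, since each is 1 sample, and unknown depth limits every statement on absent transcripts.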
